A study of Mus musculus with 70 samples.

Results

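Messenger RNA levels are described for the circadian clock genes Arntl, Clock, Per1, Per3, Cry1, Nr1d1, Nr1d2, Dbp and Tef in mice that lack an isoform of Capicua. The members were taken from a fixed list of 10 gene symbols, which was drawn up with earlier results of these data known. Symbols were joined to the versioned Ensembl identifiers of the counts through GENCODE M21. Of the 50789 identifiers counted, 9 were listed clock genes, and the tenth listed gene was not analysed here. All 9 passed the filter on low counts in each tissue. Capicua, the product of Cic, represses transcription and exists in a long and a short form. RNA came from 3 genotypes: Cic-S-KO mice, in which the short isoform was knocked out, Cic-L-KO mice, in which the long isoform was knocked out, and WT littermates of both lines, which were pooled as controls. The labels do not say which line each WT sample came from, so line and litter cannot be told apart from the isoform lost. The lung came from pups at postnatal day 6, whereas both brain regions, cortex and cerebellum, came from adults aged 12 weeks. The 70 samples fell into 9 groups of tissue and genotype, with 7 samples in both brain groups of Cic-S-KO and 8 in every other group. The clock genes bear on whether the genotypes were collected at the same phase of the daily cycle, and the labels give no collection time.

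The mammalian clock is a feedback loop present in most tissues. CLOCK and ARNTL (also called BMAL1) bind E-box sequences and activate the Per, Cry, Nr1d and Dbp genes. The PER and CRY proteins then repress CLOCK and ARNTL, and the NR1D proteins (REV-ERB) repress Arntl, so that Arntl and Dbp messenger RNA peak at nearly opposite times of day. DBP and TEF are output factors that bind D-box sequences in further rhythmic genes, and Per1 is also induced acutely by glucocorticoids and by neuronal activity.

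Total counts ranged from 17798655 to 35523037 per sample, with a mean of 24977728 ± 3272992 (SD, n = 70). By their labels the 24 lung samples were batch 1 and the 46 brain samples batch 2, so tissue, age and batch cannot be told apart between lung and brain. Tissue markers matched the labels: the alveolar gene Sftpc was at 12200 CPM or more in every lung sample and at most 0.91 CPM in the brain, where CPM is the TMM-normalised read count scaled to library size. A Cic-S-KO lung sample, replicate 5, stood apart for cortical neuron markers, with a sum of 13.4 CPM against a group median of 0.483 and at most 0.89 in the other lung groups, and without it 0 members were called in each lung comparison. The granule cell gene Gabra6 was at 375 to 846 CPM in cerebellum and at most 0.447 CPM elsewhere. Counts of the whole Cic gene cannot show the loss of an isoform. In cortex they were 150 to 173 CPM in WT, 237 to 260 CPM in Cic-S-KO and 269 to 318 CPM in Cic-L-KO, and the ranges of the 3 genotypes overlapped in cerebellum. The labels do not say that samples came from separate animals, so p-values measure the spread between these samples. In bulk tissue, fewer cells of a type and less RNA per cell cannot be told apart.

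Promoter windows are shown for the members that hold a clock motif, because the E-box is the site through which the loop is driven and the D-box the site of its output factors. Windows of 250 bases before each RefSeq start site (GRCm38.p6) were searched on both strands, with 14 windows for the 9 members. The E-box was spelled CACGTG, the D-box TTATGTAA or TTACGTAA. An E-box occurred in 3 of 9 members (Per1, Cry1 and Tef), or 33.3%, against 6.86% of 27025 genes with a window. A D-box occurred in 1 of 9 members (Per3, at 2 places), or 11.1%, against 1.1% of all genes. The members had more windows per gene than the 27025 genes, which had 32851 windows. Of those windows, 6.02% held an E-box and 0.931% a D-box. The ROR element, the Capicua octamer (TGAATGAA or TGAATGGA), the cAMP response element (TGACGTCA) and the glucocorticoid element (ACANNNTGT) were found in 0 of the 14 windows, which says only that these letters are not there. Over all genes their shares were 0.418%, 2.41%, 1.77% and 6.76%, in that order. The windows below are those of Per1 (chr11:69098699-69098947, plus strand, inside the gene but outside its exons in GENCODE M21), Cry1 (chr10:85185065-85185304, minus strand), Tef (chr15:81811164-81811413, plus strand, inside the gene and outside its exons) and Per3 (chr4:151044666-151044915, minus strand). Capitals mark the E-box in Per1, Cry1 and Tef and the D-boxes in Per3, and bases in annotated exons were left off.
Per1: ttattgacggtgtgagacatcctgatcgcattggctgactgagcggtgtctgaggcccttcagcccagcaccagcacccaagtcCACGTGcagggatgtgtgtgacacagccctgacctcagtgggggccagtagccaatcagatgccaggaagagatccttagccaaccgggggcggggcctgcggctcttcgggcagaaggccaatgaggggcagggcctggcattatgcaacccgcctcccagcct
Cry1: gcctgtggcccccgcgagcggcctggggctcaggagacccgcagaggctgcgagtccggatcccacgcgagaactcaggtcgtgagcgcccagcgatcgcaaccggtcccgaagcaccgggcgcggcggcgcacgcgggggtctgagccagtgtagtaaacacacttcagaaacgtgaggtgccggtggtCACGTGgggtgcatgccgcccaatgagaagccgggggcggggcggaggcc
Tef: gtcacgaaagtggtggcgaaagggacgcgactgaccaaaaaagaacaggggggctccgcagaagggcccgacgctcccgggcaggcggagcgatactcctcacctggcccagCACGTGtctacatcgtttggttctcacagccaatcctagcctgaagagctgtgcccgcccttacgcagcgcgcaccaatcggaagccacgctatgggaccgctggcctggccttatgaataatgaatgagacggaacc
Per3: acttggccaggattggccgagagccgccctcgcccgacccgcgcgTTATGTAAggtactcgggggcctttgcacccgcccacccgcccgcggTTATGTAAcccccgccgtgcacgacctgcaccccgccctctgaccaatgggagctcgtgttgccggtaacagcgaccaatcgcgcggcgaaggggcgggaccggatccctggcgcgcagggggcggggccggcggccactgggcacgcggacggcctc
The E-box began 166 bases before the start site in Per1, 60 in Cry1 and 138 in this window of Tef. The D-boxes of Per3 began 205 and 158 bases before its start site. A match is a description of the letters and not evidence of binding.

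Clock gene levels differed between the genotypes in both brain regions, and no member passed the test in lung. Dbp, Tef, Per3 and Nr1d2 were higher in Cic-S-KO compared with Cic-L-KO in both brain regions, with the WT medians between them. Calls are from edgeR's quasi-likelihood test with Benjamini-Hochberg adjusted p under 0.05 over all genes of a tissue, and the comparisons within a tissue share samples. In cortex, 3 of 9 members were higher and 0 lower in Cic-S-KO than in WT, where 6.53% of all 16974 genes tested were called. In Cic-L-KO cortex 1 member was higher and 4 were lower than in WT, where 43.2% of all genes were called, so that 5 of 9 is near the background. Between the knockouts 6 members were higher and 1 lower in Cic-S-KO cortex, against 33.9% of all genes. In cerebellum, 1 member was higher and 2 lower in Cic-S-KO than in WT (8.23% of all genes called), 0 were higher and 4 lower in Cic-L-KO than in WT (21.5%), and 4 were higher and 0 lower in Cic-S-KO compared with Cic-L-KO (12.4%). The median log2 fold change of the 9 members between the knockouts was 0.42 in cortex, against -0.00 over all genes, and 0.40 in cerebellum, against 0.00.

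**Figure D1:**
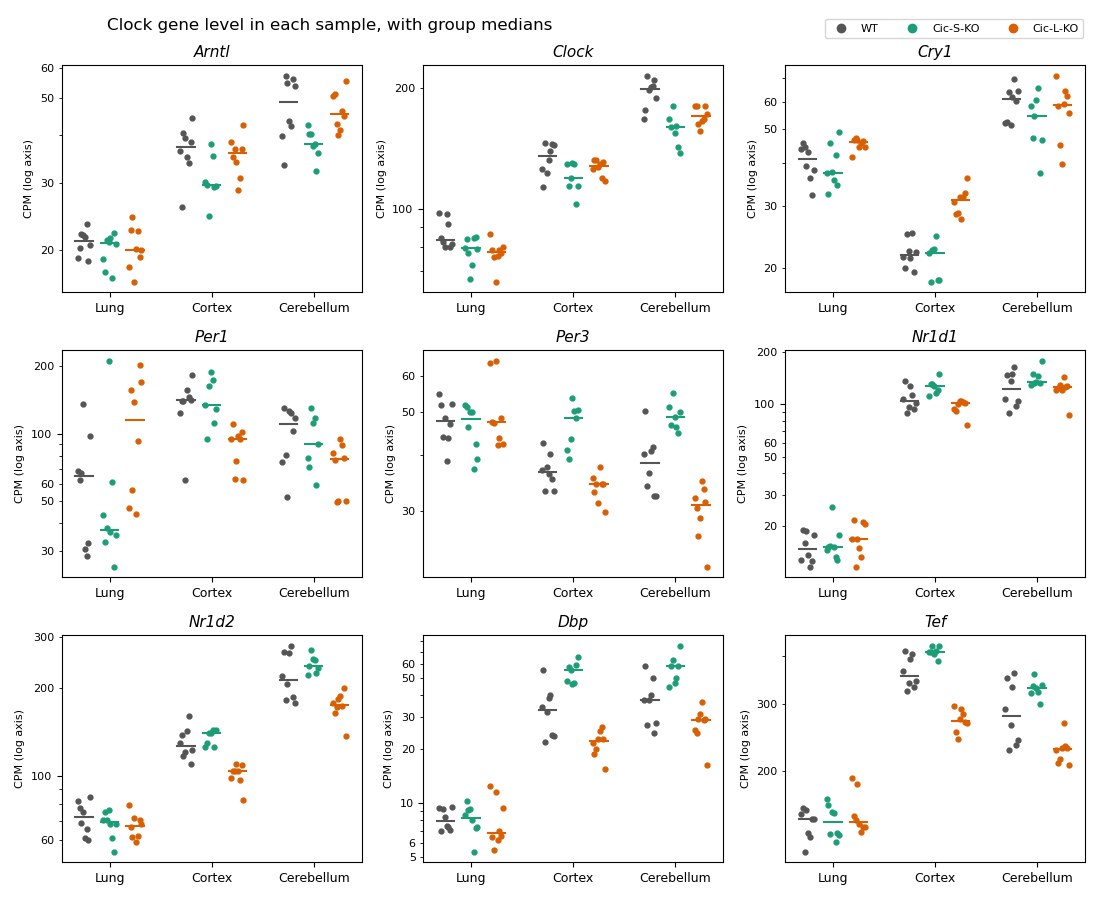
Level of each clock gene in every sample, in TMM-normalised CPM on a log axis, by tissue and genotype (points are samples, bars are group medians). In cortex the Tef levels of Cic-S-KO (389 to 427 CPM) lie above all Cic-L-KO samples (243 to 296 CPM), while lung groups overlap for every gene.

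**Figure D2:**
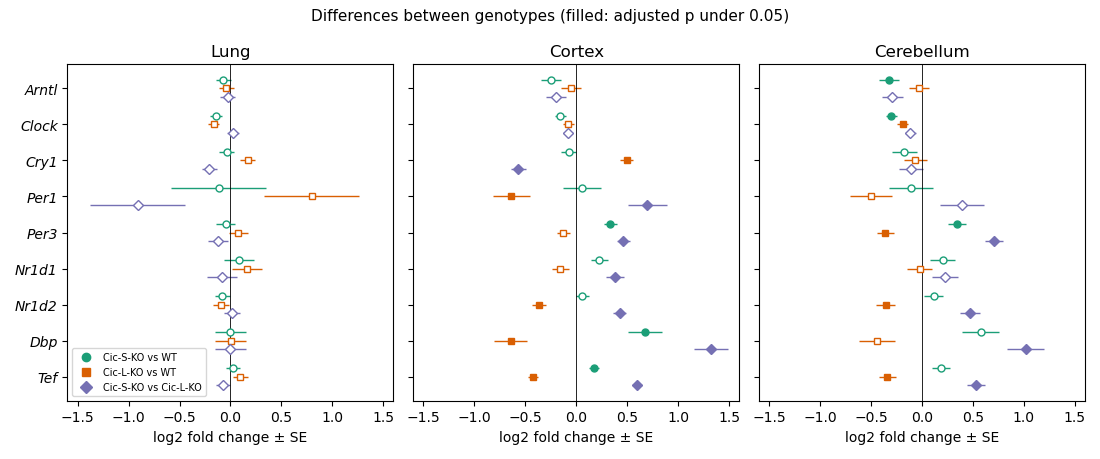
Log2 fold change ± SE of each clock gene for 3 comparisons in each tissue, from edgeR, with filled symbols for adjusted p under 0.05. Dbp has the largest difference between the knockouts in both brain regions, and lung holds no filled symbol.

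Arntl and Clock encode the activators of the loop. In cortex, Arntl was at 26.0 to 44.5 CPM in WT (median 37.3), 24.5 to 37.9 in Cic-S-KO (median 29.7) and 28.8 to 42.5 in Cic-L-KO (median 35.9). The ranges overlapped, and neither knockout passed the test against WT, with log2 fold changes of -0.25 ± 0.10 (SE; edgeR adjusted p = 0.128) and -0.05 ± 0.09 (edgeR adjusted p = 0.685). In cerebellum, Arntl was at 33.4 to 57.3 CPM in WT (median 48.8), 32.2 to 42.6 in Cic-S-KO (median 37.9) and 40.1 to 55.5 in Cic-L-KO (median 45.5). Its Cic-S-KO level fell below WT by a log2 fold change of -0.32 ± 0.10 (edgeR adjusted p = 0.0491), with 1 of 7 samples below every WT sample. For Arntl that call lies at the threshold: it was lost in 17 of 23 fits that each left out a library (edgeR adjusted p 0.00805 to 0.126), and RLE normalization gave 0.0504. Between the knockouts in cerebellum, Arntl was at -0.29 ± 0.10 (edgeR adjusted p = 0.0615). It passed there with DESeq2 (adjusted p = 0.0282), with only the compared genotypes (edgeR adjusted p = 0.0105), with a mean of at least 50 counts (edgeR adjusted p = 0.0466), and without WT replicate 2 (edgeR adjusted p = 0.0245) or Cic-L-KO replicate 4 (edgeR adjusted p = 0.0453). Clock in cerebellum was at 168 to 215 CPM in WT, 138 to 181 in Cic-S-KO and 156 to 181 in Cic-L-KO. Below every WT sample lay 5 of 7 Cic-S-KO and 3 of 8 Cic-L-KO samples. It fell in both knockouts, by a log2 fold change of -0.30 ± 0.05 in Cic-S-KO (edgeR adjusted p = 0.00139) and -0.19 ± 0.05 in Cic-L-KO (edgeR adjusted p = 0.01). In cortex Clock passed in neither comparison with WT.

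The Per and Cry genes encode the repressors. Cry1 (chr10:85131700-85185064, minus strand, GRCm38) in cortex was at 19.4 to 25.1 CPM in WT (median 21.8), 18.2 to 24.6 in Cic-S-KO (median 22.1) and 27.7 to 36.1 in Cic-L-KO (median 31.4). Each of the 8 Cic-L-KO samples was above every sample of the other genotypes. The log2 fold change against WT was 0.49 ± 0.07 (edgeR adjusted p = 7.76e-07) in Cic-L-KO and -0.07 ± 0.07 (edgeR adjusted p = 0.585) in Cic-S-KO. In cerebellum the Cry1 ranges overlapped, at 51.5 to 69.8 CPM in WT, 37.5 to 65.5 in Cic-S-KO and 39.7 to 71.3 in Cic-L-KO, and no comparison passed.

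Per3 (chr4:151003652-151044665, minus strand) in cortex was at 33.2 to 42.6 CPM in WT (median 36.6), 39.2 to 53.7 in Cic-S-KO (median 48.5) and 29.9 to 37.7 in Cic-L-KO (median 34.4). In cerebellum it was at 32.4 to 50.2 CPM in WT (median 38.4), 44.8 to 54.9 in Cic-S-KO (median 48.7) and 22.5 to 35.0 in Cic-L-KO (median 30.9). The knockouts did not overlap in either region. Per3 rose in Cic-S-KO against WT by 0.34 ± 0.06 in cortex (edgeR adjusted p = 0.00238) and by 0.34 ± 0.09 in cerebellum (edgeR adjusted p = 0.0171), on the log2 scale. Against WT in Cic-L-KO it fell by 0.36 ± 0.09 in cerebellum (edgeR adjusted p = 0.00382), and the cortex value was -0.13 ± 0.06 (edgeR adjusted p = 0.0958).

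Per1 had a wide spread within groups. In cortex it was at 62.2 to 182 CPM in WT (median 140.0), 94.3 to 188 in Cic-S-KO (median 134) and 62.5 to 110.0 in Cic-L-KO (median 94.9). The Cic-L-KO samples all lay below 7 of the 8 WT samples, and the remaining WT sample, replicate 4, was at 62.2 CPM. Per1 fell in Cic-L-KO cortex against WT by 0.64 ± 0.18 on the log2 scale (edgeR adjusted p = 0.00814), while the Cic-S-KO value was 0.06 ± 0.19 (edgeR adjusted p = 0.894). In cerebellum Per1 was at 52.4 to 130.0 CPM in WT, 59.0 to 130.0 in Cic-S-KO and 49.6 to 94.3 in Cic-L-KO, and no comparison passed. WT replicate 4 was also the lowest WT cerebellum sample, and without it Per1 fell there in Cic-L-KO, with a log2 fold change of -0.60 (edgeR adjusted p = 0.0348) against -0.50 ± 0.21 (edgeR adjusted p = 0.0918) with it. DESeq2 called that difference of Per1 with all samples, at -0.50 (adjusted p = 0.0444).

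Nr1d1 and Nr1d2 encode the REV-ERB repressors of Arntl. Nr1d2 (chr14:18204054-18239127, minus strand) in cortex was at 110.0 to 161 CPM in WT (median 126), 126 to 144 in Cic-S-KO (median 140.0) and 82.3 to 110.0 in Cic-L-KO (median 104), with 7 of 8 Cic-L-KO samples below every WT sample. In cerebellum it was at 178 to 281 CPM in WT (median 214), 223 to 271 in Cic-S-KO (median 239) and 137 to 201 in Cic-L-KO (median 176). Nr1d2 fell in Cic-L-KO against WT by 0.37 ± 0.06 in cortex (edgeR adjusted p = 5.58e-05) and by 0.36 ± 0.09 in cerebellum (edgeR adjusted p = 0.00775), on the log2 scale. In Cic-S-KO its differences from WT were 0.06 and 0.12 and did not pass. Nr1d1 passed in 1 comparison, Cic-S-KO against Cic-L-KO in cortex, where 112 to 150.0 CPM stood against 75.5 to 105 CPM and the log2 fold change was 0.38 ± 0.09 (edgeR adjusted p = 0.0014). WT cortex spanned 88.5 to 136 CPM, overlapping both. DESeq2 also called Nr1d1 in Cic-S-KO cortex against WT, at 0.23 (adjusted p = 0.0468). Exons of Nr1d1 share 263 bases with Thra on the other strand, and whether counting used strand is not given in the sources used here.

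Dbp and Tef encode output factors of the loop, and of the 9 members Dbp had the largest log2 fold change between the knockouts in both brain regions. In cortex, Dbp (chr7:45705088-45710203, plus strand) was at 22.0 to 55.1 CPM in WT (median 33.2), 46.0 to 65.5 in Cic-S-KO (median 55.1) and 15.5 to 26.7 in Cic-L-KO (median 22.1). In cerebellum it was at 24.5 to 58.3 CPM in WT (median 37.5), 44.2 to 75.5 in Cic-S-KO (median 58.1) and 16.2 to 36.6 in Cic-L-KO (median 29.1). The knockouts did not overlap in either region, and WT overlapped both. WT replicate 2 was the highest WT sample in both regions, and no other WT cortex sample was above 40.2 CPM. The level in Cic-S-KO was 2.49 times that in Cic-L-KO in cortex (log2 1.32 ± 0.17, edgeR adjusted p = 2.54e-06) and 2.03 times in cerebellum (log2 1.02 ± 0.18, edgeR adjusted p = 0.000716). Against WT in cortex, Dbp rose in Cic-S-KO by 0.68 ± 0.16 (edgeR adjusted p = 0.0192) and fell in Cic-L-KO by 0.64 ± 0.16 (edgeR adjusted p = 0.00334). In cerebellum the same comparisons gave 0.58 ± 0.18 (edgeR adjusted p = 0.0514) and -0.45 ± 0.18 (edgeR adjusted p = 0.0786), and neither passed. The first of these passed with DESeq2 (adjusted p = 0.0209) and, in edgeR, without WT replicate 2 (adjusted p = 0.0146), WT replicate 6 (adjusted p = 0.0414), Cic-S-KO replicate 1 (adjusted p = 0.0396) or Cic-L-KO replicate 8 (adjusted p = 0.0344). The Cic-L-KO difference of Dbp passed with DESeq2 (adjusted p = 0.0439) and, in edgeR, without WT replicate 7 (adjusted p = 0.0392). With only the compared genotypes in the fit, the cortex difference of Cic-S-KO from WT had an edgeR adjusted p of 0.0524. Dbp shares 539 exon bases with Sphk2 on the other strand, and Sphk2 differed in the opposite direction between the knockouts, by a log2 fold change of -0.28 in cortex and -0.32 in cerebellum. Dbp lies on chromosome 7, 20.4 Mb from Cic.

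Tef (chr15:81802421-81826863, plus strand) in cortex was at 324 to 413 CPM in WT (median 356), 389 to 427 in Cic-S-KO (median 411) and 243 to 296 in Cic-L-KO (median 272). All 8 Cic-L-KO samples were below every WT sample, and 3 of 7 Cic-S-KO samples were above every WT sample. Tef fell in Cic-L-KO cortex by 0.42 ± 0.05 on the log2 scale (edgeR adjusted p = 1.89e-08) and rose in Cic-S-KO cortex by 0.17 ± 0.05 (edgeR adjusted p = 0.0298). In cerebellum, Tef was at 228 to 362 CPM in WT (median 278), 300.0 to 359 in Cic-S-KO (median 330.0) and 208 to 267 in Cic-L-KO (median 228). It fell there in Cic-L-KO by 0.34 ± 0.08 (edgeR adjusted p = 0.00546), and the Cic-S-KO value was 0.19 ± 0.09 (edgeR adjusted p = 0.184).

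A single library moved the count in Cic-S-KO cortex against WT. Without WT replicate 2, which had the highest Dbp and Per3 and the lowest Arntl and Clock of the WT cortex samples, 6 members were called in place of 3: 4 higher and 2 lower. Arntl then had a log2 fold change of -0.305 (edgeR adjusted p = 0.0275), Clock -0.185 (edgeR adjusted p = 0.0194) and Nr1d1 0.29 (edgeR adjusted p = 0.0288). The Tef call was lost without WT replicate 3 (edgeR adjusted p = 0.0635), WT replicate 8 (edgeR adjusted p = 0.055) or Cic-S-KO replicate 7 (edgeR adjusted p = 0.0591). Clock also passed without Cic-S-KO replicate 1 (edgeR adjusted p = 0.0408) or replicate 4 (edgeR adjusted p = 0.0461). In Cic-L-KO cortex 5 members were called whichever cortex library was left out.

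In lung, 0 of 9 members passed in Cic-S-KO against WT, where 15.7% of 16695 genes were called, 0 in Cic-L-KO against WT (4.89%) and 0 between the knockouts (12.2%). At an unadjusted p under 0.05, Clock was lower in both knockouts than in WT, and Cry1 was higher in Cic-L-KO than in either other genotype. DESeq2 called 1 member between the knockouts, Cry1, with a log2 fold change of -0.21 (adjusted p = 0.0493), and 0 in the other lung comparisons. In edgeR, Cry1 passed between the knockouts without WT replicate 7 (adjusted p = 0.0443), Cic-S-KO replicate 3 (adjusted p = 0.0377) or Cic-S-KO replicate 8 (adjusted p = 0.0144). Clock passed in Cic-S-KO against WT without WT replicate 7 (edgeR adjusted p = 0.0494). With samples of the same number fitted as a block, Clock passed as lower in both knockouts against WT. Dbp was at 6.98 to 9.53 CPM in WT lung, 5.33 to 10.2 in Cic-S-KO and 5.48 to 12.5 in Cic-L-KO, with log2 fold changes against WT of -0.00 ± 0.15 and 0.00 ± 0.15. Per1 was the most variable member there, at 28.6 to 136 CPM in WT, 25.6 to 211 in Cic-S-KO and 44.1 to 201 in Cic-L-KO. The highest Cic-S-KO sample, replicate 4, was far above the other 7, which were at 25.6 to 60.8 CPM. Without it, Per1 was lower in Cic-S-KO compared with Cic-L-KO lung by a log2 fold change of -1.54 (edgeR adjusted p = 0.0111), against -0.91 ± 0.47 (edgeR adjusted p = 0.234) with it.

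Per kilobase of exon in WT samples, Dbp ranked lowest of the 9 in lung (median 2.64 CPM per kb, 2.33 to 3.18), overlapping Arntl (2.81, 2.49 to 3.11), and 5 of 9 from the top in cortex (11.1, 7.35 to 18.4). Tef ranked highest by median in lung (19.1, 15.6 to 20.3) and in cortex (45.3, 41.2 to 52.5). Its range overlapped those of Per1 (5.08 to 24.2) and Nr1d2 (11.1 to 15.7) in lung and of Nr1d1 (28.8 to 44.2) in cortex. In cerebellum, Nr1d2 (39.6), Nr1d1 (39.5) and Tef (35.4) were the 3 highest, and their ranges overlapped. Per3 was lowest in cortex (3.81, 3.46 to 4.43) and cerebellum (3.99, 3.37 to 5.22), and its range overlapped that of Arntl in both.

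The genotype effects were compared between the regions with an interaction contrast over 46 samples and 18032 genes. For Cic-S-KO, 0 of 9 members differed between cortex and cerebellum, where 4.5% of all genes were called. For Cic-L-KO, 1 of 9 differed, against 23% of all genes. That gene was Cry1, whose effect was larger in cortex by a log2 fold change of 0.56 ± 0.14 (edgeR adjusted p = 0.00281). For Dbp the Cic-L-KO effect differed by -0.20 ± 0.24 (edgeR adjusted p = 0.612), and at an unadjusted p under 0.05 Per3 was the other Cic-L-KO difference, at 0.23 ± 0.11. This fit treats same-numbered samples of the regions as independent. With the replicate number as a block, Per3 passed as well (0.23, edgeR adjusted p = 0.0305).

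Over the 3 genotypes pooled, cortex and cerebellum samples with the same number varied together. The labels do not say whether such samples came from the same animal. Over 23 pairs, the deviations of log2 CPM from the group mean correlated for all 9 members, with Pearson r from 0.51 (Cry1) to 0.92 (Dbp). The share of all genes that correlate in this way was not computed. Same-numbered samples also deviated together across 12074 genes, with a mean r of 0.242 over the 23 pairs. That r runs over genes within a pair, so it cannot be set against the r of a gene over pairs. Whether the relation was particular to clock genes was not tested. In all, 9 relations were tested with 100000 permutations of the numbers within genotype. For Dbp, r was 0.919 (permutation p = 1e-05, the smallest these permutations can give, adjusted p = 4.5e-05), rho was 0.874 (permutation p = 1e-05) and r was 0.906 without the 2 farthest pairs. For Tef, r was 0.885 (permutation p = 2e-05, adjusted p = 4.5e-05), rho was 0.884 (permutation p = 1e-05) and r was 0.832 without those 2 pairs. For Cry1, r was 0.506 (permutation p = 0.0222, adjusted p = 0.0222), rho was 0.513 (permutation p = 0.0196) and r was 0.482. Within each genotype r was 0.853 to 0.971 for Dbp and 0.654 to 0.982 for Tef. The relation was not seen in every genotype for 4 members: in Cic-S-KO r was -0.127 for Arntl and -0.258 for Per3, and in Cic-L-KO it was 0.0298 for Cry1 and 0.119 for Clock. Cic-L-KO replicate 8 had the lowest Dbp, Nr1d1, Nr1d2 and Per3 and the highest Arntl of its group in both regions.

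**Figure D3:**
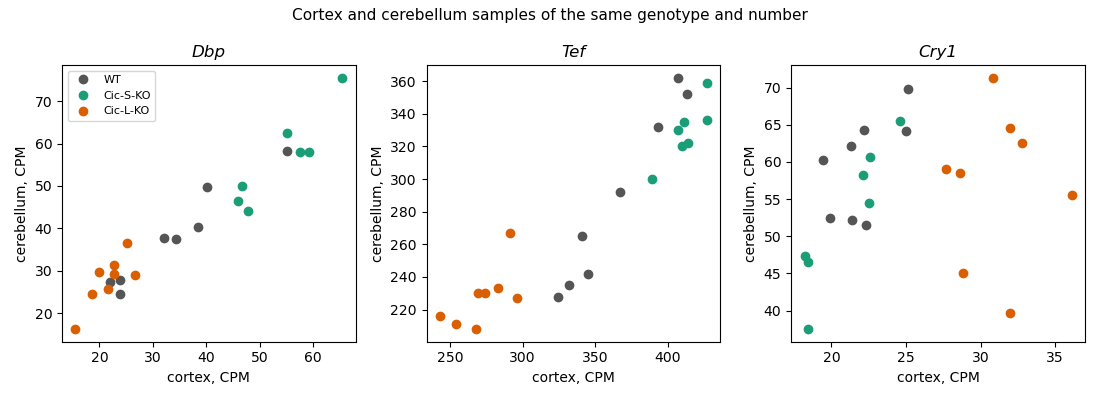
Dbp, Tef and Cry1 in cortex (x axis) and cerebellum (y axis), in CPM, for the 23 pairs of samples that share genotype and number. Dbp and Tef lie along a diagonal across the genotypes (r of deviations from the group mean 0.919 and 0.885), and Cic-L-KO is set to the right for Cry1.

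Within the brain groups, samples with low Dbp had high Arntl. Of 24 relations of Dbp with another member over the 3 tissues, 14 passed (adjusted permutation p under 0.05), 11 positive and 3 negative. The share of all genes passing was not computed. An absolute r of at least 0.7 was reached by 27 of 12737 genes in cortex. In cerebellum these were 13 of 12673 and in lung 29 of 13089, counting Dbp itself. Several relations that passed were not seen in every genotype. In Cic-S-KO cortex r was 0.141 for Tef, -0.0438 for Nr1d2 and -0.13 for Per3. In Cic-S-KO cerebellum it was 0.115 for Per3 and Nr1d2, and in Cic-L-KO cortex 0.176 for Clock. Between Dbp and Arntl, the activator, r was -0.802 in cortex (permutation p = 2e-05, adjusted p = 0.00016, n = 23), rho was -0.862 (permutation p = 1e-05) and r was -0.724 without the 2 farthest samples. In cerebellum r was -0.798 (permutation p = 9e-05, adjusted p = 0.000432, n = 23), rho was -0.752 (permutation p = 0.00023) and r was -0.758 without those 2. In WT alone r was -0.902 in cortex and -0.870 in cerebellum. Nr1d1, a target of the same activators, had r of 0.866 with Dbp in both regions (permutation p = 1e-05 in cortex, the smallest possible, and 2e-05 in cerebellum, adjusted p = 0.00016 in both; rho 0.848 and 0.819). Per1 did not pass, with r of -0.041 in cortex (permutation p = 0.885) and 0.242 in cerebellum (permutation p = 0.3). In lung, Per3 (r = 0.706, permutation p = 0.00094, adjusted p = 0.00226; rho 0.609), Nr1d2 (r = 0.668, permutation p = 0.00015, adjusted p = 0.000514; rho 0.67) and Tef (r = 0.591, permutation p = 0.00655, adjusted p = 0.0129; rho 0.457) passed. The Tef relation in lung rested on few samples, with r of 0.349 without the 2 farthest and an adjusted permutation p of 0.0651 for rho. In cortex the relation of Per3 with Dbp was likewise r = 0.535 (adjusted permutation p = 0.0129) with all samples and 0.369 without the 2 farthest, and rho was 0.451 (adjusted permutation p = 0.0651). Arntl did not pass in lung (r = -0.384, permutation p = 0.12, n = 24).

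**Figure D4:**
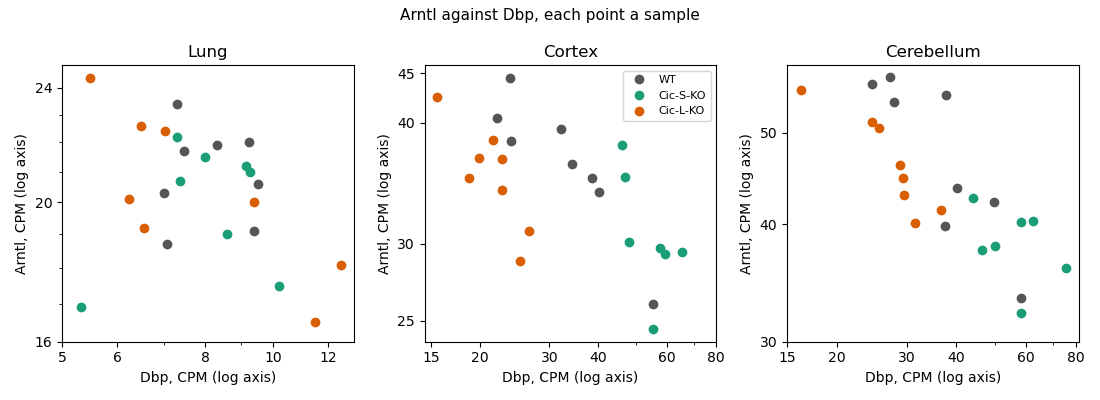
Arntl against Dbp in each sample, in CPM on log axes, by tissue and genotype. In cortex and cerebellum r on the log2 scale is negative within each genotype, from -0.386 to -0.902, and in cortex the Cic-L-KO samples lie at 15.5 to 26.7 CPM of Dbp, with Arntl at 28.8 to 42.5 CPM.

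Cic-L-KO cortex had lower Dbp than WT with no called difference in Arntl. Within cortex groups the slope of log2 Arntl on log2 Dbp was -0.51, and the log2 fold changes of Cic-L-KO against WT were -0.64 for Dbp and -0.05 for Arntl. Log2 Dbp minus log2 Arntl was -0.17 ± 0.67 (SD, n = 8) in WT cortex, 0.81 ± 0.36 (SD, n = 7) in Cic-S-KO and -0.72 ± 0.41 (SD, n = 8) in Cic-L-KO. When the Dbp level of each sample was added to the edgeR fit as a covariate, Arntl in Cic-L-KO cortex was lower than WT by a log2 fold change of -0.35 (adjusted p = 0.000633), Clock by -0.20 (adjusted p = 0.00502) and Tef by -0.28 (adjusted p = 2.36e-05). Cry1 remained higher, at 0.39 (adjusted p = 0.000723), and Per1 lower, at -0.68 (adjusted p = 0.0312). In Cic-S-KO cortex the count of the 8 other members called against WT went from 2 to 0, and in Cic-L-KO cortex from 4 to 6. Between the knockouts it went from 6 to 2, of which only Tef (0.29, adjusted p = 0.0118) was among the 6, and Arntl (0.48, adjusted p = 0.0114) was added. Per1 went from 0.70 to 0.80 there but no longer passed (adjusted p = 0.227), and Cry1 from -0.57 to -0.34 (adjusted p = 0.126). In cerebellum it went from 3 to 0 in Cic-S-KO against WT, with Clock from -0.30 to -0.22 (adjusted p = 0.0874), Per3 from 0.34 to 0.12 (adjusted p = 0.486) and Arntl from -0.32 to -0.03 (adjusted p = 0.919). Over all genes, the covariate took the calls from 1108 to 29 in Cic-S-KO cortex, from 1370 to 116 in Cic-S-KO cerebellum and from 7338 to 5482 in Cic-L-KO cortex. They went from 3580 to 2768 in Cic-L-KO cerebellum. Between the knockouts they went from 5757 to 1566 in cortex and from 2069 to 180 in cerebellum. In lung they rose from 2624 to 2689 in Cic-S-KO, from 817 to 919 in Cic-L-KO and from 2030 to 2218 between the knockouts. Genotype held 75.6% of the variance of log2 Dbp in cortex, 60.5% in cerebellum and 0.52% in lung, so in the brain the covariate and the genotype overlap. Whether collection time differed between the genotypes was not tested, since the labels used here give none.

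**Figure D5:**
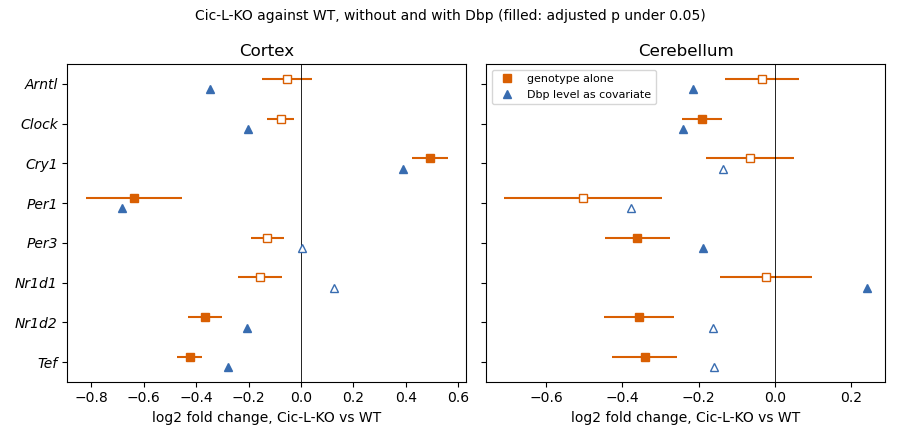
Log2 fold change of 8 clock genes in Cic-L-KO against WT from edgeR, with genotype alone (squares, bars are SE) and with the Dbp level as covariate (triangles), filled for adjusted p under 0.05. In cortex Cry1 stays at 0.39 and Arntl goes from -0.05 to -0.35.

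Other genes of the clock pathway also differed between the genotypes, with values below as log2 fold changes. Of 22 listed genes, 21 were tested in the brain. In Cic-L-KO cortex 2 were higher and 11 lower than WT, where 43.2% of all genes were called, and in Cic-S-KO cortex 1 was higher and 2 lower, against 6.53%. Between the knockouts 8 were higher and 2 lower in Cic-S-KO cortex (33.9% of all genes), and 8 higher and 1 lower in Cic-S-KO cerebellum (12.4%). Ciart, a repressor driven by E-boxes, was at 8.15 to 25.1 CPM in WT cortex, 14.0 to 30.4 in Cic-S-KO and 5.23 to 8.34 in Cic-L-KO, without overlap between the knockouts. Its log2 fold change between them was 1.72 ± 0.21 in cortex (edgeR adjusted p = 1.35e-06) and 0.98 ± 0.16 in cerebellum (edgeR adjusted p = 0.000171). Nfil3, which opposes DBP at D-boxes, was lower in Cic-S-KO compared with Cic-L-KO, by -0.62 ± 0.14 in cortex (edgeR adjusted p = 0.00147) and -0.43 ± 0.13 in cerebellum (edgeR adjusted p = 0.0292). Cry2 and Hlf, a CRY repressor and a relative of DBP, fell in Cic-L-KO cortex by 0.19 each on the log2 scale, with edgeR adjusted p of 0.000345 and 0.00306. Wee1 fell there by 0.55 ± 0.06 (edgeR adjusted p = 3.49e-08), Usp2 by 0.31 ± 0.06 (edgeR adjusted p = 0.000332) and Bhlhe40 by 0.43 ± 0.17 (edgeR adjusted p = 0.0464). Ciart (-1.08), Fbxl21 (-0.55), Rorb (-0.47), Rora (-0.31) and Nampt (-0.18) were among the others that fell in Cic-L-KO cortex, and Noct (0.13) and Arntl2 (0.52) were the 2 that rose. In Cic-S-KO cortex against WT, Arntl2 rose (0.35) and Wee1 (-0.22) and Rora (-0.20) fell. Between the knockouts in cortex, Fbxl21 (0.82), Usp2 (0.43), Bhlhe41 (0.34), Wee1 (0.33), Rorb (0.29), Cry2 (0.20) and Nampt (0.10) were higher in Cic-S-KO beside Ciart, and Noct (-0.23) was lower beside Nfil3. In cerebellum, Fbxl21 (0.54), Hlf (0.38), Bhlhe41 (0.36), Wee1 (0.31), Rora (0.30), Bhlhe40 (0.24) and Cry2 (0.23) were higher in that comparison beside Ciart. In Cic-L-KO cerebellum, where 21.5% of all genes were called, 0 were higher and 5 lower than WT: Ciart (-0.43), Timeless (-0.36), Usp2 (-0.34), Wee1 (-0.27) and Cry2 (-0.13). In Cic-S-KO cerebellum, against 8.23% of all genes, 6 were higher, among them Ciart (0.54), Fbxl21 (0.33) and Bhlhe41 (0.27), and Nampt (-0.16) was lower. In lung, where members did not pass, Cic-S-KO had 4 higher and 2 lower of 20 tested against WT (15.7% of all genes called), with Bhlhe41 at 1.02 ± 0.19 (edgeR adjusted p = 0.000661), Bhlhe40 at 0.55 and Usp2 at 0.48 among the higher genes, and Arntl2 at -0.34 and Btrc at -0.20 the lower.

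Beside Per1, 8 glucocorticoid-responsive and 8 activity-responsive genes were followed. In Cic-L-KO cortex 0 glucocorticoid-responsive genes were higher and 4 lower than WT, with a median log2 fold change of -0.32 against 0.01 over all genes: Hif3a at -0.88, Sgk1 at -0.80, Fkbp5 at -0.44 and Tsc22d3 at -0.40. There, 0 activity-responsive genes were higher and 3 lower: Egr1 at -0.89, Junb at -0.73 and Nr4a1 at -0.72. With 43.2% of all genes called in this comparison, 4 of 8 and 3 of 8 are near the background. The summed level of the activity-responsive genes was 419 to 1870 CPM in WT cortex, 874 to 1580 in Cic-S-KO and 533 to 902 in Cic-L-KO. In Cic-S-KO cortex against WT, 1 glucocorticoid-responsive gene was lower and 0 activity-responsive genes passed, against 6.53% of all genes. The median log2 fold change of the glucocorticoid-responsive genes there was -0.28, against -0.00 over all genes. Between the knockouts in cortex, where 33.9% of all genes were called, 1 glucocorticoid-responsive gene was lower in Cic-S-KO (median 0.06). Of the activity-responsive genes, 4 were higher and 0 lower (median 0.79). In that comparison in cerebellum (12.4%), 2 glucocorticoid-responsive genes were lower and 2 activity-responsive genes higher, with 0 the other way. The part of these inputs in the Per1 difference was not tested.

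Markers of other cell types also varied in the brain, and 0 of those listed here had a group mean under 0.1 CPM. Summed choroid plexus markers (4 analysed of 5 listed) were at 20.9 to 584 CPM in WT cortex (median 28.0), 9.01 to 614 in Cic-S-KO (median 18.2) and up to 1280 in Cic-L-KO (median 404). In Cic-L-KO cortex against WT, where 43.2% of all genes were called, 1 of those 4 markers, 2 of 4 astrocyte markers and 2 of 3 macrophage and microglia markers were higher. Of 3 cortical neuron markers, 2 were lower there, with summed levels of 1350 to 1580 CPM against 1780 to 1990 in WT. Of 3 endothelial markers, 3 were higher in Cic-L-KO cerebellum (21.5% of all genes called), at a sum of 69.5 to 81.9 CPM against 39.7 to 63.4 in WT. Of 4 astrocyte markers, 1 was higher and 2 were lower in Cic-L-KO cerebellum. Between the knockouts in cortex (33.9% of all genes called), 2 of 3 oligodendrocyte markers were higher in Cic-S-KO, while 2 of 3 macrophage and microglia, 2 of 3 endothelial and 2 of 4 astrocyte markers were lower. Of 3 cortical neuron markers, 2 were higher and 1 lower in that comparison. In cerebellum 2 of 3 endothelial markers were lower in Cic-S-KO, 2 of 4 astrocyte markers were higher and 1 was lower (12.4% of all genes called). In cortex, counts out of 3 or 4 markers cannot be set apart from the 43.2% and 33.9% of all genes called. The part of these cells in the clock gene differences was not tested.

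The genes whose deviations were most like those of Dbp included other clock genes, as a description over all samples of a tissue. In cortex, Nr1d1 ranked highest of 12736 other genes (r = 0.866), followed by Bhlhe41 (0.817), a repressor of the loop, and then Epha8 (0.799), Unc119 (0.776), Mthfd1l (0.768) and Hspa14 (0.741), with Tef (0.751) ranked 6. Arntl ranked lowest of all, at -0.802, and the next were Cdh12 at -0.78, Ddhd2 at -0.754, Hnrnpm at -0.738, Ptprk at -0.729 and Gm9833 at -0.726. In cerebellum Ciart ranked highest (0.928), followed by Nr1d1 (0.866), Nr1d2 (0.8), Tef (0.798), Per3 (0.772), Bhlhe41 (0.75), Por (0.739), Dgat2 (0.736) and Ccdc85b (0.716). Arntl again ranked lowest, at -0.798, and the next were Emg1 (-0.73), Akt2 (-0.708), Thsd1 (-0.693), Atp13a4 (-0.675) and Ttll3 (-0.675). In lung the 5 highest were Sept4 (0.812), Ak3 (0.793), Ushbp1 (0.767), Tmem198b (0.759) and Tmem121b (0.752), none of them on the clock lists, and the 5 lowest were Ipo5 (-0.789), Galns (-0.787), Jpt2 (-0.785), Ppa1 (-0.778) and Mpp6 (-0.757). Per3 ranked 16 and Nr1d2 ranked 32 there.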

How the data were processed

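Total RNA from flash-frozen tissue was poly(A)-selected for sequencing, per the labels' protocols. The authors deposited whole-number counts of reads per gene for 70 samples. STAR 2.7 and GRCm38.p6 are named in the submitters' processing notes, while the counting program, the annotation and the use of strand are not given in the sources used here. Of 50789 identifiers, 50639 matched GENCODE M21, and 0 columns lacked a sample. Among 238 pairs of replicates, 0 were identical, and the lowest chi-square per degree of freedom was 4.17.

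Members and gene lists were chosen with earlier results of these data known. The text names all members analysed, listed pathway genes that passed a test (some of these are counted but not reported here by name), and the 5 genes of highest and lowest r with Dbp among genes whose mean log2 CPM reached 1. The genes that share exons with Dbp and Nr1d1 were added after the annotation was seen.

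Each tissue was fitted alone with edgeR 4.0.16 in R 4.3.3 (filterByExpr, TMM, robust quasi-likelihood), all 3 genotypes together, with Benjamini-Hochberg adjustment over all genes and a threshold of 0.05. SEs were derived from the F statistic. Correlations used log2 CPM with a prior count of 2, as deviations from group means, and 100000 two-sided permutations within genotype. The fit and the permutation test were tested on simulated data. Alternatives were DESeq2 1.42.0, RLE, other filters, a size threshold of 0.5, only the compared genotypes, Dbp as covariate, a replicate block, a prior count of 0.5 and leaving out each library. In the interaction the block joined same-numbered samples of cortex and cerebellum, which deviated together in 21 of 23 pairs by a correlation over 0.1. Within a tissue it joined the same number across genotypes. Those samples did so in 20 of 24 pairs in lung, 14 of 22 in cortex and 12 of 22 in cerebellum. As neither held for every pair, the block is an alternative only.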

Additional observations from a re-analysis of the deposited data

Results flagged for a closer look

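Of 81 sets of values (9 genes in 9 groups), 6 held a sample that stood apart from the rest of its group, where chance gives about 1 in 20, or 4.05. In lung, Cic-S-KO replicate 4 was apart for Per1, at 211 CPM against 25.6 to 60.8 CPM in the other 7 samples, and for Nr1d1, at 25.5 CPM against 12.7 to 17.7 CPM. Cic-L-KO replicate 8 was apart for Nr1d1 in both brain regions, at 75.5 CPM in cortex against 91.4 to 105 CPM, and at 87.1 CPM in cerebellum against 121 to 144 CPM. Nr1d1 in Cic-S-KO cerebellum replicate 7 was at 178 CPM against 129 to 149 CPM. Tef in Cic-L-KO cerebellum replicate 5 was at 267 CPM against 208 to 233 CPM.

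The effect of Cic-L-KO on Cry1 differed between the brain regions in the test of that difference, by a log2 fold change of 0.56 (edgeR adjusted p = 0.00281). Against WT it was 0.49 in cortex and -0.06 in cerebellum. The other 8 members did not pass this test, and with the replicate number as a block Per3 passed as well (0.23, edgeR adjusted p = 0.0305).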

How the results depend on the processing

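Counts of called members differed by more than 1.5 times from the reported ones, or went from or to 0, under several settings. A size threshold moved 5 counts, Dbp as covariate 5, the replicate block 3, DESeq2 1 and no filter 1. Leaving out a library moved 6 and left 296 the same. RLE, a mean of at least 50 counts, only the compared genotypes and a prior count of 0.5 moved none. The cause was not tested. When a call also needed a log2 size of 0.5 or more, cortex had 1 in Cic-S-KO against WT, 2 in Cic-L-KO against WT and 4 between the knockouts, and cerebellum had 0 in either knockout against WT. Without a filter 1 was called in Cic-S-KO cerebellum, with Per3 at an edgeR adjusted p of 0.0646. DESeq2 called 1 between the knockouts in lung. With the replicate number as a block, the samples sharing only a number in the labels, 1 was called in each knockout against WT in lung (Clock, log2 -0.143 and -0.167) and 2 in the Cic-L-KO interaction (Cry1 and Per3, the latter 0.23). Under that block Dbp changed sign in lung, to -0.0305 in Cic-L-KO against WT and 0.0279 between the knockouts, and the Arntl call in Cic-S-KO cerebellum was lost at -0.29 (edgeR adjusted p = 0.138). By the labels, replicates 2 to 7 of the Cic-S-KO brain groups are libraries numbered 3 to 8. Within a brain region the block therefore joined them to libraries of another number in the other genotypes. Of 23 samples, 14 correlated best with their own number in the other region. The block moved no other count of called members by over 1.5 times.

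With Dbp as covariate, the other members called were 0 in Cic-S-KO cortex and 0 in Cic-S-KO cerebellum, 2 between the knockouts in cortex, 1 between them in cerebellum, and 2 in the Cic-L-KO interaction. Signs then changed in Cic-S-KO cortex for Arntl (0.13), Clock (0.000451), Cry1 (0.0504), Nr1d1 (-0.10) and Nr1d2 (-0.13), and in Cic-L-KO cortex for Per3 (0.0043) and Nr1d1 (0.13). Between the knockouts they changed in cortex for Arntl (0.48), Clock (0.20) and Nr1d1 (-0.23), and in cerebellum for Arntl (0.19), Clock (0.0168), Cry1 (0.0661) and Nr1d1 (-0.38). In cerebellum they changed for Nr1d1 (-0.14), Nr1d2 (-0.13) and Tef (-0.0342) in Cic-S-KO and for Nr1d1 (0.24) in Cic-L-KO. In the interactions they changed for Nr1d1 (-0.0505) in Cic-S-KO and Nr1d2 (0.0478) in Cic-L-KO. With a mean of at least 50 counts, values near 0 changed sign for Dbp in Cic-S-KO lung (0.00112) and, in the interactions, for Per3 (0.00645), Arntl (0.00619) and Nr1d2 (0.0157), and without a filter for Dbp in Cic-L-KO lung (-0.00482).

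Leaving out each library gave 2 to 6 called members in Cic-S-KO cortex, and 0 to 1 in Cic-S-KO lung and between the knockouts in lung. Signs of values that did not pass changed within these ranges. In lung against WT they were Per1 -0.744 to 0.127, Nr1d1 -0.0379 to 0.13, Dbp -0.058 to 0.0637 and Tef -0.0111 to 0.0423 in Cic-S-KO, and Dbp -0.117 to 0.0659 in Cic-L-KO. Between the knockouts in lung they were Arntl -0.0658 to 0.0092, Clock -0.00706 to 0.0547, Nr1d2 -0.0164 to 0.0518 and Dbp -0.0725 to 0.116. In the brain they were Per1 -0.0453 to 0.142 in Cic-S-KO cortex, and Arntl -0.0937 to 0.00582 and Nr1d1 -0.0832 to 0.0458 in Cic-L-KO cerebellum. In the Cic-S-KO interaction they were Per3 -0.073 to 0.0288, Nr1d1 -0.0447 to 0.0888, Dbp -0.0147 to 0.238 and Tef -0.0719 to 0.0268, and in the Cic-L-KO interaction Arntl -0.0798 to 0.041 and Nr1d2 -0.0647 to 0.0419. Dbp in lung had the fewest reads of the members, at about 8.16 CPM in WT, which limits its precision there.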
